A study of Mus musculus with 7 samples.

Results

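Accessible chromatin was examined at 10 genes that link lysosomal nutrient sensing to transcription: Tfeb, Tfe3, Mitf, Flcn, Fnip1, Fnip2, Rraga, Rragc, Rragd and Prkaa1. A peak was counted for a gene if it touched the gene, or if it lay within 100 kb of it and no protein-coding gene was nearer. This gave 31 of the 50213 deposited peaks, 23 touching a gene and 8 outside it. The genes share a pathway, and the rule uses no measured value, although the members were chosen with earlier results of these data known. The data are from ATAC-seq, which reads out open chromatin by inserting sequencing adapters into it with a transposase. The cells were regulatory T cells (Treg cells) sorted from mouse spleen. All mice were mixed bone marrow chimeras, whose blood system came in equal parts from CD45.1+ donor marrow and from marrow marked by CD45.2. The latter carried Foxp3Cre alone in the WT group (4 libraries) and Foxp3Cre with floxed Opa1 alleles (Foxp3CreOpa1fl/fl, called KO here) in the other group (3 libraries). Cre was thus present in both groups, and it deletes Opa1 in cells that express Foxp3. The sorted cells were CD45.2+, CD45.1-, CD4+ and Foxp3-YFP+. CD45.1+ cells of normal Opa1 genotype were also present in each mouse and were kept out by the sort. The labels state neither age nor sex of the mice. Opa1 encodes a GTPase that fuses the inner mitochondrial membrane, and the series concerns the exchange between mitochondria and lysosomes in Treg cells. The comparison asked whether sites at these lysosomal signalling genes were more or less open when Opa1 had been deleted.

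TFEB, TFE3 and MITF are related transcription factors of the MiT family that bind short E-box sequences and switch on genes of lysosomes and autophagy. When amino acids are plentiful, Rag GTPases at the lysosome recruit mTORC1 and these factors, which are phosphorylated and kept in the cytoplasm. Folliculin, encoded by Flcn, with its partners FNIP1 and FNIP2 acts on the Rag proteins RagC and RagD so that TFEB and TFE3 are held in this way. AMPK, whose catalytic subunit alpha 1 is encoded by Prkaa1, senses low cellular energy and acts on FNIP1 and on mTORC1.

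Total counts in peaks ran from 1534394 to 2134586 in the WT libraries and from 1658436 to 3384325 in the KO libraries, with KO replicate 1 the deepest. Sampling noise was enough to account for the difference between WT replicates 2 and 3 over 36418 peaks (chi-square p = 0.084), although not over the 11332 most abundant ones (p = 0.035). As a precaution they were averaged and counted as 1 sample in each mean ± SD, so that n = 3 in both groups. The labels number 4 WT replicates, and the tests kept all 7 libraries. Peaks were assigned to all 7 Treg marker genes examined, Foxp3 and Il2ra among them, with a summed level of 61.0 to 65.0 CPM per kb of peak in WT and 63.9 to 65.9 in KO. CPM are counts scaled to a common library total. Of 6 myeloid markers Lyz2, Csf1r and Fcgr3 had no peak, and the summed level of the others was 20.2 to 27.1 CPM per kb in WT and 18.5 to 21.8 in KO. The 5 general T cell markers all had peaks (41.3 to 48.1 CPM per kb in WT and 43.2 to 46.3 in KO), as did 5 of 6 CD8 T cell and NK cell markers (28.7 to 31.4 and 30.7 to 32.5), where Ncr1 had none. A peak assigned to Opa1 (chr16:29579139-29579524) had 35.4 ± 1.10 CPM in WT and 33.7 ± 6.65 in KO, and does not check the deletion, since the labels do not name the floxed exons.

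Promoter windows of 5 of the genes are printed first, from RefSeq (GRCm38.p6, the assembly that mm10 names), each from 250 bases before a listed transcript start to 50 after it, on the strand of the gene. All 10 genes matched that table, with 15 listed starts in all. Tfeb is shown as the gene with the lowest summed log2 fold change, with no E-box of the kind searched in its window. Rragc and Fnip1 are the pair with the E-box CACGTG, printed in capitals. The first and the third listed start of Mitf are shown because a peak covered one and not the other, and Flcn because its start fell in a gap between peaks. The windows of Tfeb and of the first Mitf start have no capitals. In the last 2 windows capitals mark TGACGTCA, the full cAMP response element.
Tfeb, first start, chr17:47736787-47737086, + strand: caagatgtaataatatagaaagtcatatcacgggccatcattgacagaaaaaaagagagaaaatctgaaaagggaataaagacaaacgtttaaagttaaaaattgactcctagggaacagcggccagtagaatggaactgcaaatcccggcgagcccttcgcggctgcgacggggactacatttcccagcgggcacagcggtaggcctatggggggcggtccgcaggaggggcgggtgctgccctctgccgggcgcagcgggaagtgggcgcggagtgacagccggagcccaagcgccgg
Rragc, chr4:123917183-123917482, + strand: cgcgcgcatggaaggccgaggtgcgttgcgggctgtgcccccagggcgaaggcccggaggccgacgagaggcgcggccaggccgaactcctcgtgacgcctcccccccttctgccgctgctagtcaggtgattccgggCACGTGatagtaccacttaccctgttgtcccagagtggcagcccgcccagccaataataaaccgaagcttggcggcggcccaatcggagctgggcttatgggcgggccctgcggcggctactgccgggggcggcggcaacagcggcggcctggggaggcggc
Fnip1, chr11:54437929-54438228, + strand: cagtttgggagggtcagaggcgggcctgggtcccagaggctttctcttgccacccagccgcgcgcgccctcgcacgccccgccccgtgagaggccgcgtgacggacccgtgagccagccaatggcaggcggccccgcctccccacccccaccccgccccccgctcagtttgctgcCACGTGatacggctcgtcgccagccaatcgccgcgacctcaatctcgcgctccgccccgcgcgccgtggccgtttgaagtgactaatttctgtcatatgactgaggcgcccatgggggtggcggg
Mitf, the first start, chr6:97806808-97807107, + strand: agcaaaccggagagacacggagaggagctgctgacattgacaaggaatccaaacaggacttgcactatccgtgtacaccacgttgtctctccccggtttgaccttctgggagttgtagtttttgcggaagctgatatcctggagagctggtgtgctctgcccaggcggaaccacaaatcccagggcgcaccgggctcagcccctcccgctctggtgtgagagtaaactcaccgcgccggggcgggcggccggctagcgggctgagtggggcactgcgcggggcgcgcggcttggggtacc
Mitf, the third start, chr6:97991533-97991832, + strand: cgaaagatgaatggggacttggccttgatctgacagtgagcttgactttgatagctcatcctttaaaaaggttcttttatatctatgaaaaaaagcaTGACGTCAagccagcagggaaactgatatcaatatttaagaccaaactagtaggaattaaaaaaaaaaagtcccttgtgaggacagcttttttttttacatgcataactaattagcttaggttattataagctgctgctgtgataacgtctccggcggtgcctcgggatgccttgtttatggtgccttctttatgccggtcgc
Flcn, chr11:59809990-59810289, - strand: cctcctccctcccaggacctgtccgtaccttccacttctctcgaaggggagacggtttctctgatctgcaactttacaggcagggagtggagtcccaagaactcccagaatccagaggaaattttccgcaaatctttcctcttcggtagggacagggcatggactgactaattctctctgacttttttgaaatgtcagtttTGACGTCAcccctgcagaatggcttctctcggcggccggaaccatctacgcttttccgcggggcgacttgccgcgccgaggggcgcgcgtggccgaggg

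A peak covered 8 of the 15 listed starts, 1 each at Tfeb, Tfe3, Mitf, Fnip1, Fnip2, Rraga, Rragc and Prkaa1. Of all 32851 listed starts of the genome, 31.3% were covered. Where a gene had several listed starts, the first was the covered one: Tfeb and Mitf each have 3 and Tfe3 has 2. The second start of Tfeb lay 321 bp from the nearest peak and the third 7707 bp from it. The second start of Tfe3 lay 1126 bp from its peak. At Mitf the second and the third start lay 32609 and 23810 bp from any peak. As background, melanocytes transcribe Mitf from a start near the downstream end of the gene, while other cell types use starts farther upstream. Among the 1874 genes with several listed starts of which at least 1 was covered, 49.5% had exactly 1 covered.

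Neither Flcn nor Rragd had a peak on its listed start. The Flcn start lay between a pair of peaks, 62 bp from the one inside the gene (chr11:59809590-59809977) and 121 bp from the one before it (chr11:59810160-59810431). Its TGACGTCA match, 49 bases before the start, was in neither peak and 72 bp from the nearer one. The Rragd start lay 211 bp from a peak inside the gene (chr4:32983209-32983912).

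The 15 windows were searched on both strands for CACGTG, the E-box core of the lysosomal gene element bound by TFEB. It occurred in 2 of them, at Rragc (112 bases before the start) and at Fnip1 (75 bases before it), and both matches were inside a peak. Of all 32851 windows 7.15% held it, and of the windows whose start was covered by a peak 11.1%. The full lysosomal element, which has further set bases on both sides of this core, was in 0 of the 15. It was in 0.326% of all windows, or 0.826% of those with a covered start. The related core CATGTG was in 0 of the 15 and in 14.2% of all, or 7.53% of those with a covered start. The GC box GGGCGG was in 9 of the 15 and in 35.7% of all, or 68.6% of those with a covered start. TGACGTCA was in 2 of the 15, at Flcn and at the third listed start of Mitf, both without a peak on the start. It was in 1.79% of all, or 3.77% of those with a covered start. The windows with a covered start held 14 to 52 CpG dinucleotides and the uncovered ones 5 to 20. Over all windows the median was 22 where the start was covered and 4 where it was not. A match of letters describes a window and does not show that a factor binds there.

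The peaks that covered a start had the highest mean levels among the peaks of these genes. Per kb of peak and averaged over the 7 libraries, the order was Rragc (181 CPM per kb), Mitf (139), Rraga (137), Tfeb (88.2), Tfe3 (83.4), Fnip1 (73.4), Fnip2 (66.9) and Prkaa1 (45.1). The libraries of neighbours in this order overlapped, except between Rraga and Tfeb and between Fnip2 and Prkaa1. The median was 63.9 CPM per kb over the 8277 peaks of the genome that cover a listed start and 27.8 over all peaks. Rragc stood at percentile 89.3 of the start-site peaks and Prkaa1 at percentile 34.8. The 23 other peaks ranged from 9.48 CPM per kb, at a site within Fnip2, to 44.2 at the Flcn peak 703 bp past the start. Single libraries at Prkaa1 ran from 35.5 to 61.8 CPM per kb, so its lead over that Flcn peak lay within their spread. These levels include both genotypes and are descriptions of the sites.

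**Figure D1:**
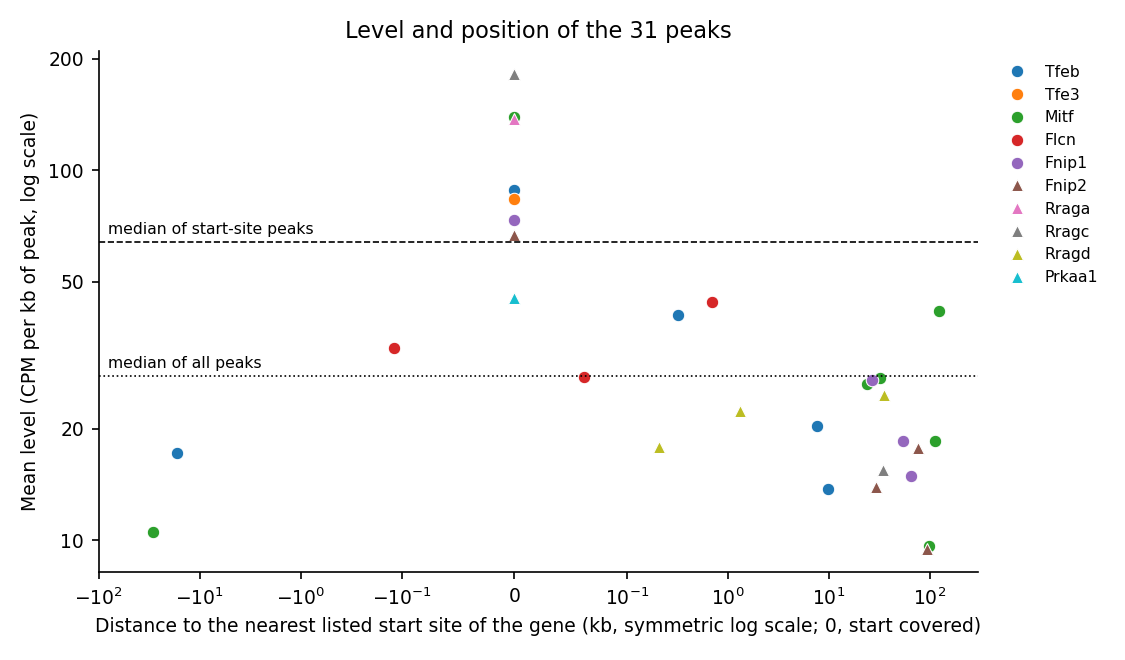
Mean level of each of the 31 peaks over 7 libraries (CPM per kb of peak, log scale) against the distance to the nearest listed start of its gene (kb, symmetric log scale, negative before the start), with dotted and dashed lines at the medians of all peaks and of start-site peaks. By mean level the 8 peaks on a start site lie above all the others, from 45.1 at Prkaa1 to 181 at Rragc. The highest of the other peaks, at Flcn, has 44.2.

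Of the 31 peaks, 25 had enough counts to be tested and 6 did not. The 6 untested ones had a mean count of 3.57 to 8.0 per library, and the tested ones 7.29 to 171. With edgeR's quasi-likelihood test, 0 of the 25 were called at an adjusted p of 0.05, and 0 had an unadjusted p under 0.05. By limma-voom and by DESeq2 the number called was also 0. Over all 38041 tested peaks 0.0867% were called (0.0473% higher and 0.0394% lower in KO) and 9.46% had an unadjusted p under 0.05, so 0 calls among 25 is near the background. The log2 fold changes of KO against WT ran from -0.67 to 0.50, 13 below 0 and 12 above (50.3% of all tested peaks were below), with a median of -0.03 against -0.0024 over all tested peaks. At 1 of the 25 the 2 groups did not overlap, where 9.32% of all tested peaks showed this.

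The counts of all peaks of a gene were also summed and tested among 13271 gene sums, of which 0.369% were called. None of the 10 sums was called by edgeR (0 of 10, adjusted p from 0.439 to 0.997), by DESeq2 or by limma-voom. Only Tfeb reached an unadjusted p under 0.05, which 11.3% of all gene sums did. All 10 of the 95% intervals of the log2 fold change lay within a 2-fold change in either direction, and 9 within 1.5-fold, Tfeb being the exception. Over all gene sums those shares were 87.6% and 64.1%. At single peaks the intervals were wider. They lay within 2-fold at 16 of 25 peaks, among them all 8 start-site peaks, and within 1.5-fold at 7, where the shares over all tested peaks were 60.9% and 24.2%. On simulated counts the gene-sum test recovered 50.7% of sums changed 1.5-fold and 80.6% of those changed 2-fold, and the peak test 8.06% and 56.1%. These shares are over changed features of all depths. Most counts in the data were even numbers, which the simulation did not reproduce, and the effect of this on recovery was not tested. The simulated sets gave 107 called peaks and 161 called sums, against 33 and 49 in the data. More calls make the adjusted p less strict, so recovery in the data may be lower. The intervals are not limits of detection, and a change inside them may have gone uncalled. Recovery of changes smaller than 1.5-fold was not tested. In a bulk sample, a site open in fewer cells and a site less open in each cell cannot be told apart.

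**Figure D2:**
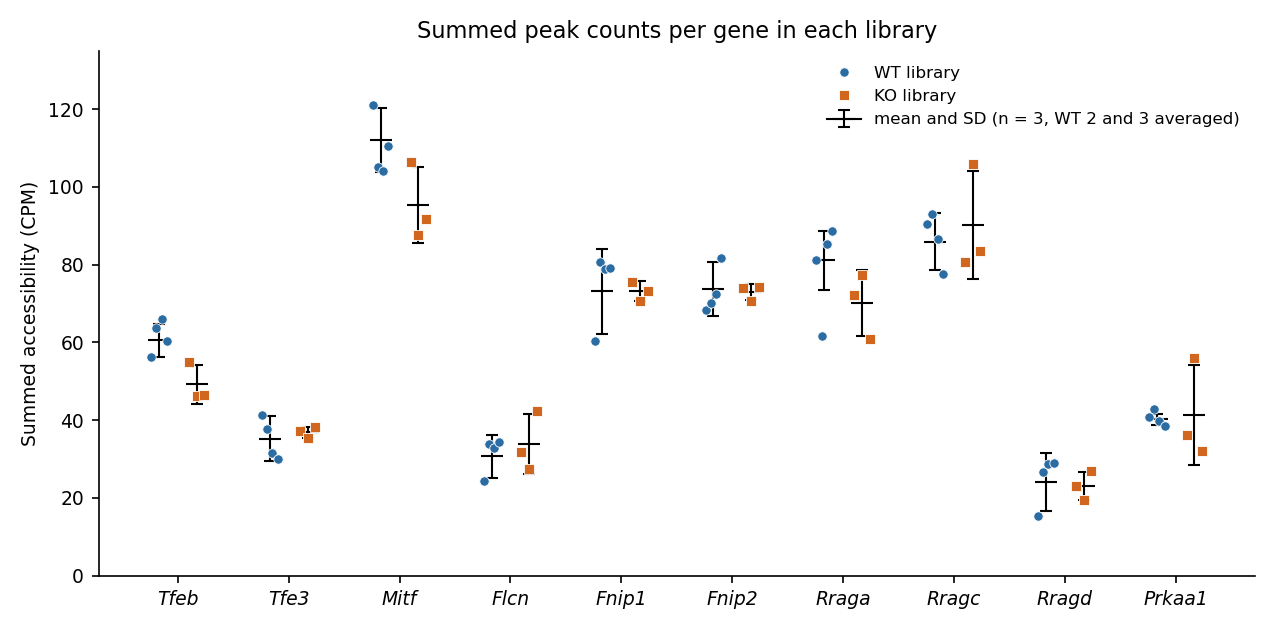
Summed accessibility of each gene (CPM, vertical axis) in the WT libraries (circles) and KO libraries (squares), with the mean and SD (n = 3, WT replicates 2 and 3 averaged); sums of genes with more peaks are larger, so heights are not for comparing genes. The KO libraries lie below all WT libraries at Tfeb, from 46.3 to 55.0 against 56.3 to 66.1, and overlap with them at the other 9 genes.

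Tfeb (chromosome 17, 47737037 to 47792416) had 5 peaks, 3 touching the gene and 2 beyond its downstream end. Their summed level was 56.3, 63.7, 66.1 and 60.3 CPM in WT replicates 1 to 4 and 55.0, 46.3 and 46.4 CPM in KO replicates 1 to 3. All KO libraries were below all WT libraries, KO replicate 1 by a small margin. Groups without overlap were found in 9.52% of all gene sums, and KO was the lower one in 4.87%. The mean was 60.5 ± 4.31 in WT and 49.2 ± 4.96 in KO (SD, n = 3 each). The fitted change on the log2 scale was -0.30 (SE 0.15, 95% interval -0.60 to -0.00047, adjusted p = 0.439). The unadjusted p was 0.0496. The sum therefore was not called, and its interval reached nearly to 0.

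All 4 tested Tfeb peaks had a log2 fold change below 0, from -0.41 to -0.22, and each interval included 0. The start-site peak (chr17:47736853-47737239) held 61.7% of the counts of the gene. It had 29.8, 40.3, 37.3 and 39.6 CPM in WT replicates 1 to 4 and 40.0, 24.4 and 27.0 in KO replicates 1 to 3. KO replicate 1 was close to the highest WT library here, and the other KO libraries were below all WT libraries. The log2 fold change was -0.22 (SE 0.20, adjusted p = 0.785). Leaving out KO replicate 1 gave -0.50, leaving out KO replicate 2 gave -0.087 and leaving out KO replicate 3 gave -0.13. The second peak, 321 bp past the second start, had 6.59 to 13.0 CPM in WT and 7.27 to 8.59 in KO (log2 fold change -0.41, SE 0.37). The peak within the gene from 47768707 had 3.04 to 5.83 CPM in WT and 1.19 to 6.09 in KO, and the peak from 47793451 had 5.60 to 7.0 in WT and 4.15 to 6.09 in KO. The untested peak from 47795550 had a count of 0 in 1 WT library and 3.71 ± 1.37 CPM in WT against 2.24 ± 0.979 in KO.

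Tfe3 lies on the X chromosome (7762530 to 7775202) and encodes a factor that acts alongside TFEB. It had 1 peak, on its first start (chrX:7762387-7762817). The level was 41.0, 37.7, 31.5 and 29.9 CPM in WT replicates 1 to 4 and 37.3, 35.3 and 38.4 in KO replicates 1 to 3. The KO values lay within the range of the WT values. At this peak the log2 fold change was 0.08 (SE 0.18, 95% interval -0.29 to 0.45, adjusted p = 0.937).

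Mitf (chromosome 6, 97807002 to 98021360), the family member best known from melanocytes, had the most peaks of these genes, 3 touching it and 4 beyond its downstream end. Their summed level was 121, 105, 104 and 110.5 CPM in WT replicates 1 to 4 and 106, 87.7 and 91.8 in KO replicates 1 to 3. KO replicate 1 lay within the WT range and the other KO libraries below it. In the fit KO differed from WT by a log2 fold change of -0.20 (SE 0.12, 95% interval -0.43 to 0.03, adjusted p = 0.537).

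The start-site peak of Mitf (chr6:97806773-97807158) had 69.9, 51.9, 52.5 and 49.7 CPM in WT replicates 1 to 4 and 62.2, 48.7 and 40.5 in KO replicates 1 to 3, and the groups overlapped (log2 fold change -0.13, SE 0.16, adjusted p = 0.858). The peak 2573 bp beyond the gene (chr6:98023933-98024260) was the 1 tested peak of the 10 genes whose groups did not overlap. It had 10.3, 13.0, 9.33 and 10.1 CPM in WT replicates 1 to 4 and 6.52, 8.53 and 5.19 in KO replicates 1 to 3. All KO libraries were lower, as at 4.47% of all tested peaks. Its log2 fold change of -0.67 (SE 0.38, 95% interval -1.42 to 0.09, adjusted p = 0.598) was the most negative of the 25. The other tested Mitf peaks had log2 fold changes of 0.17 (within the gene, from 98015593), -0.54 (83974 bp beyond it) and 0.04 (92300 bp beyond it). The untested peaks from 97962426 and 98089382 had 3.37 ± 1.61 and 3.72 ± 2.45 CPM in WT and 0.801 ± 0.694 and 1.16 ± 1.22 in KO, with counts from 0 to 14 in single libraries.

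Flcn (chromosome 11, 59791408 to 59810039) had 3 peaks, all around its start. Their sum was 24.4, 33.8, 32.8 and 34.5 CPM in WT replicates 1 to 4 and 31.9, 27.4 and 42.3 in KO replicates 1 to 3. KO replicate 3 was above every WT library and the other KO libraries within their range. Summed over the 3 peaks, the log2 fold change was 0.12 (SE 0.20, 95% interval -0.27 to 0.51, adjusted p = 0.899).

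The most abundant Flcn peak, 703 bp past the start within the gene (chr11:59809046-59809336), had 9.33, 13.0, 8.17 and 15.7 CPM in WT replicates 1 to 4 and 10.7, 14.6 and 18.2 in KO replicates 1 to 3, and on the log2 scale KO differed from WT by 0.30 (SE 0.32, adjusted p = 0.833). The groups overlapped. This value was 0.10 when KO replicate 3 was left out, 0.19 for WT replicate 1, 0.16 for WT replicate 3, 0.49 for WT replicate 4 and 0.51 for KO replicate 1. The peak inside the start had 7.46 to 14.0 CPM in WT and 7.92 to 13.0 in KO (log2 fold change 0.20), and the one before the start 7.46 to 11.2 in WT and 4.87 to 11.4 in KO (-0.20).

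Fnip1 (chromosome 11, 54438107 to 54518241) had 4 peaks, all touching the gene. Their sum was 60.5, 80.6, 78.9 and 79.1 CPM in WT replicates 1 to 4 and 75.6, 70.7 and 73.2 in KO replicates 1 to 3. WT replicate 1 was lower than every other library, and the KO values lay between it and the other WT values. For Fnip1 as a whole the log2 fold change was -0.02 (SE 0.13, 95% interval -0.28 to 0.25, adjusted p = 0.987).

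The start-site peak of Fnip1 (chr11:54437741-54438307), which contains the printed E-box, had 30.8, 48.0, 42.0 and 44.6 CPM in WT replicates 1 to 4 and 42.1, 43.9 and 39.4 in KO replicates 1 to 3. The groups overlapped (log2 fold change 0.02, SE 0.17, 95% interval -0.32 to 0.37). The peak with the smallest p within the gene (chr11:54492090-54492907) had 16.3, 18.2, 15.8 and 17.3 CPM in WT replicates 1 to 4 and 16.6, 8.53 and 13.5 in KO replicates 1 to 3 (log2 fold change -0.34, SE 0.29, adjusted p = 0.767). KO replicate 2 was the lowest there, and KO replicate 1 within the WT range. The change was -0.14 without KO replicate 2 and -0.59 without KO replicate 1. The other Fnip1 peaks had log2 fold changes of 0.17 and 0.24.

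Fnip2 (chromosome 3, 79455971 to 79568151) also had 4 peaks that touched the gene. The sum was 68.5, 70.2, 72.5 and 81.6 CPM in WT replicates 1 to 4 and 73.9, 70.7 and 74.3 in KO replicates 1 to 3, with the KO values inside the WT range. For Fnip2 the log2 fold change was -0.0036 (SE 0.13, 95% interval -0.27 to 0.26, adjusted p = 0.997).

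The start-site peak of Fnip2 (chr3:79567494-79568382) held 81.2% of these counts, with 56.4, 59.7, 56.0 and 68.0 CPM in WT replicates 1 to 4 and 60.4, 59.1 and 56.1 in KO replicates 1 to 3, and KO values again lay within the WT range (log2 fold change -0.03, SE 0.14). The site from 79491627 to 79492070 had the highest log2 fold change of the 25 tested peaks, 0.50 (SE 0.40, 95% interval -0.30 to 1.29, adjusted p = 0.754). Its values were 8.39, 3.9, 8.75 and 5.58 CPM in WT replicates 1 to 4 and 8.89, 6.09 and 13.5 in KO replicates 1 to 3, and the groups overlapped. With 1 library left out the change ran from 0.20 (without KO replicate 3) to 0.71 (without KO replicate 2), and it was 0.33 without WT replicate 2. The untested peaks from 79473336 and 79538291 had 0 to 3.9 and 2.60 to 5.07 CPM in WT and 0.609 to 1.19 and 3.55 to 4.87 in KO.

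**Figure D3:**
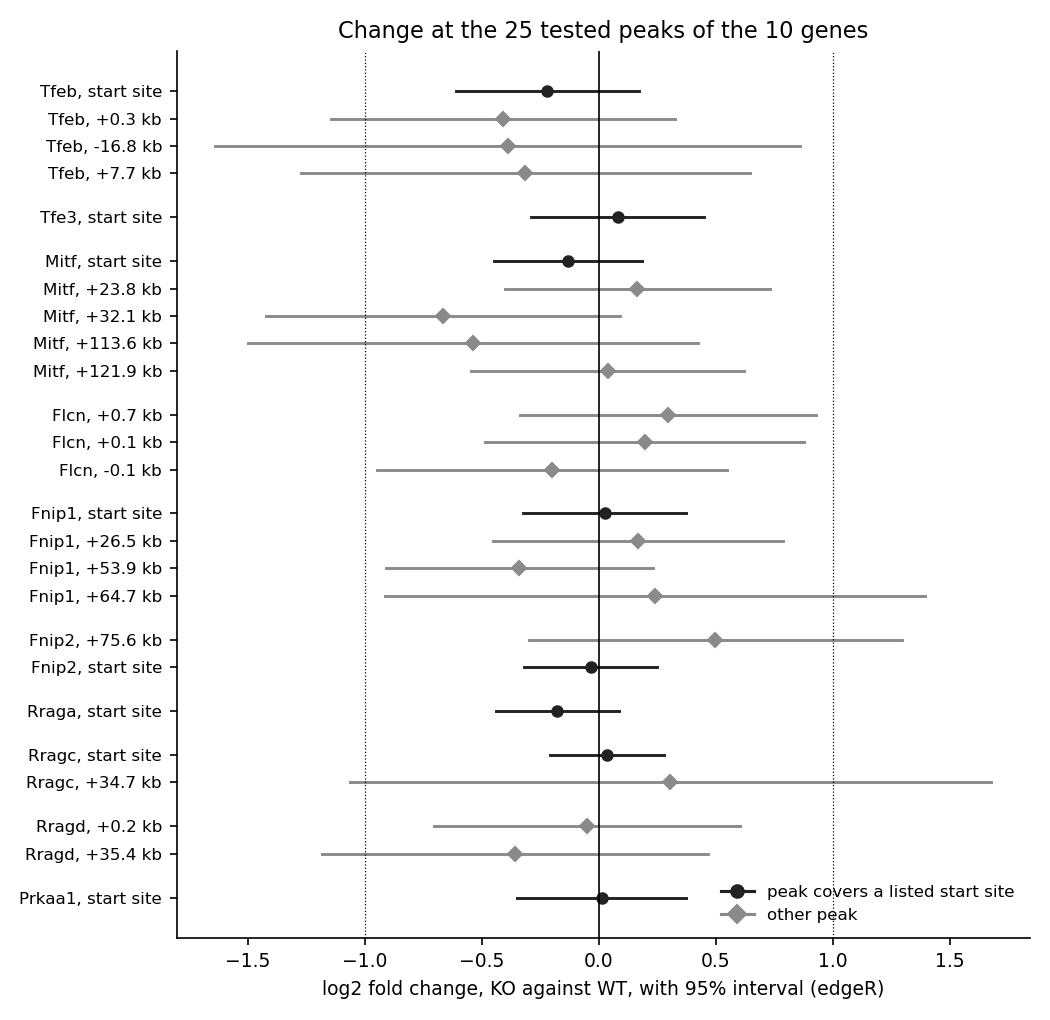
Log2 fold change of KO against WT at the 25 tested peaks (points) with the 95% interval of edgeR's fit (lines), by gene and by distance to the nearest listed start; dotted lines mark a 2-fold change. Every interval includes 0, and those of the 8 start-site peaks (black) are within 2-fold.

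The Rag genes encode the small GTPases that carry the nutrient signal, RagA from Rraga paired with RagC or RagD from Rragc and Rragd. Rraga (chromosome 4, 86575673 to 86577285) had 1 peak, on its start (chr4:86575292-86575840). Its level was 80.7, 61.7, 85.2 and 88.8 CPM in WT replicates 1 to 4 and 72.3, 77.4 and 61.2 in KO replicates 1 to 3. WT replicate 2 lay among the KO libraries and the other WT libraries above them. Rraga had a log2 fold change of -0.18 (SE 0.13, 95% interval -0.44 to 0.09, adjusted p = 0.725).

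Rragc (chromosome 4, 123917433 to 123936997) had the most open start-site peak of the 10 genes (chr4:123917130-123917595), with the other printed E-box inside it. It had 87.2, 87.6, 80.5 and 77.6 CPM in WT replicates 1 to 4 and 78.2, 98.7 and 81.0 in KO replicates 1 to 3. KO replicate 2 was the highest library and the other KO libraries fell within the WT range. The log2 fold change was 0.03 (SE 0.12, 95% interval -0.21 to 0.28, adjusted p = 0.965), the narrowest interval of the 25 peaks. The only other Rragc peak, 15153 bp beyond the gene (chr4:123952150-123952399), had 2.80, 5.19, 5.83 and 0 CPM in WT replicates 1 to 4 and 2.67, 7.31 and 3.11 in KO replicates 1 to 3. These rest on 0 to 12 counts each, and its log2 fold change of 0.31 had an SE of 0.69. The sum of both peaks was 90.5, 92.9, 86.5 and 77.6 CPM in WT replicates 1 to 4 and 80.7, 106 and 83.5 in KO replicates 1 to 3, which gave 0.04 on the log2 scale (SE 0.12, adjusted p = 0.961).

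Rragd (chromosome 4, 32982998 to 33022180), in other cell types a strongly induced target of TFEB, had 3 peaks within the gene and none on its start. Per kb of peak its sum was the lowest of the 10 genes, 20.3 CPM per kb. In CPM it was 15.5, 26.6, 28.7 and 28.9 in WT replicates 1 to 4 and 23.1, 19.5 and 26.8 in KO replicates 1 to 3. WT replicate 1 was the lowest library, and all KO values lay within the WT range. The log2 fold change was -0.09 (SE 0.23, 95% interval -0.54 to 0.36, adjusted p = 0.944).

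The most abundant Rragd peak, 211 bp past the start (chr4:32983209-32983912), had 6.53, 11.7, 20.4 and 13.2 CPM in WT replicates 1 to 4 and 15.1, 8.53 and 12.5 in KO replicates 1 to 3, and the WT libraries spread more widely than the KO ones (log2 fold change -0.05, SE 0.33). The peak with the smallest p (chr4:33018434-33018744) had 6.53, 10.4, 5.83 and 11.2 CPM in WT replicates 1 to 4 and 6.52, 3.65 and 9.34 in KO replicates 1 to 3 (log2 fold change -0.36, SE 0.41, adjusted p = 0.851), and the groups overlapped. Leaving out KO replicate 2 gave -0.11, WT replicate 4 -0.19 and KO replicate 3 -0.65. The untested peak from 32984330 had 3.44 ± 1.12 CPM in WT and 4.66 ± 2.95 in KO.

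Prkaa1 (chromosome 15, 5143861 to 5181899) had 1 peak, the widest of the 31 at 906 bp, on its start (chr15:5143283-5144189). It had 40.6, 42.8, 39.7 and 38.6 CPM in WT replicates 1 to 4 and 36.1, 56.0 and 32.2 in KO replicates 1 to 3. The WT libraries were close together, while KO replicate 2 was above and the other KO libraries below all of them. The log2 fold change was 0.01 (SE 0.18, 95% interval -0.35 to 0.37, adjusted p = 0.992). Without KO replicate 2 it was -0.22 (adjusted p = 0.798).

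**Figure D4:**
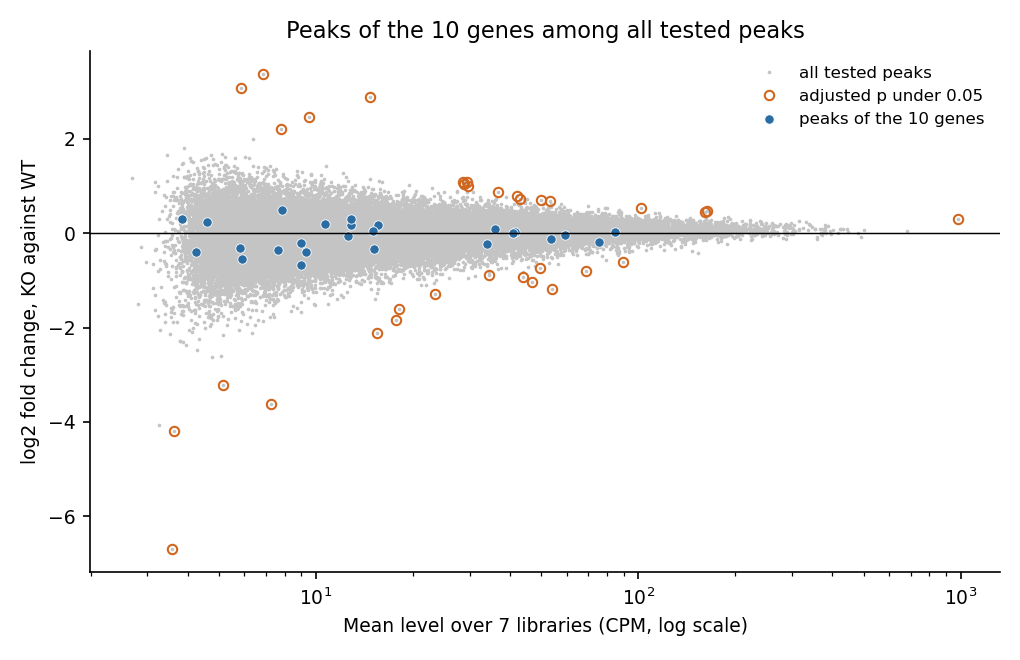
Log2 fold change of KO against WT (vertical axis) against the mean level over 7 libraries (CPM, log scale) for the 38041 tested peaks (grey), the 33 called ones (open orange circles) and the 25 tested peaks of the 10 genes (blue). The blue points lie inside the grey cloud, from -0.67 to 0.50, and none is circled.

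Other genes of the pathway were counted in 6 lists of 81 genes in all, of which 77 had a peak. Of their 216 tested peaks edgeR called 0, against 0.0867% of all tested peaks, and DESeq2 and limma-voom called 0. An unadjusted p under 0.05 was reached by 14 (6.48%, against 9.46% of all tested peaks). Of the 216, 118 were above 0 and 98 below, with a median log2 fold change of 0.03. None of 76 gene sums was called by the 3 tools. An unadjusted p under 0.05 in edgeR was reached by 6, against 11.3% of all gene sums. No peak was assigned to Tfec, another MiT gene, to Prkag3 or Stk11 among the AMPK genes, or to the cathepsin gene Ctsf.

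In the list of mTORC1 and its inhibitor TSC, 0 of 24 peaks were called and 13 were above 0. Its smallest p was at the peak that touches Rheb, the GTPase that activates mTORC1 (chr5:24842329-24843058). It had 104, 119, 124 and 92.3 CPM in WT replicates 1 to 4 and 133, 130 and 148 in KO replicates 1 to 3 (log2 fold change 0.32, SE 0.11, adjusted p = 0.276). All KO libraries were above all WT libraries, as at 4.84% of all tested peaks. In the AMPK list, 0 of 51 were called and 26 were above 0. In this list 6 had an unadjusted p under 0.05, which 9.46% of all tested peaks did. Its smallest p was within Prkag2, a regulatory subunit of AMPK (chr5:25010375-25010719), with 19.1, 23.4, 19.8 and 25.4 CPM in WT replicates 1 to 4 and 11.9, 13.4 and 10.4 in KO replicates 1 to 3. All KO libraries were lower here, as at 4.47% of all tested peaks (log2 fold change -0.88, SE 0.27, adjusted p = 0.247).

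Among TFEB and TFE3 target genes 0 of 46 peaks were called and 26 were above 0. The smallest p was at Uvrag, which acts in autophagosome maturation (chr7:99141017-99141667), with 186, 178, 180 and 188 CPM in WT replicates 1 to 4 and 221, 214 and 200 in KO replicates 1 to 3. The KO libraries were all higher, as at 4.84% of all tested peaks (log2 fold change 0.21, SE 0.09, adjusted p = 0.409). Among TFEB regulators and relatives 0 of 41 were called. The smallest p was within Ppp3ca, a catalytic subunit of calcineurin, which dephosphorylates TFEB (log2 fold change -1.29, SE 0.52, adjusted p = 0.397). KO libraries were all lower at this peak, at 2.08 to 3.65 CPM against 4.66 to 12.2 in WT. Such groups occurred at 4.47% of all tested peaks. The peaks of GATOR, KICSTOR and amino acid sensor genes had 0 calls among 44 and a smallest p at Nprl2 (log2 fold change -0.56, SE 0.30, adjusted p = 0.574). Those of the Rag and Ragulator partners had 0 among 10 and a smallest p at Lamtor4 (0.72, SE 0.33, adjusted p = 0.49). At the Nprl2 and Lamtor4 peaks the groups overlapped.

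No gene sum of the 10 was called in any of the 18 alternatives. The Tfeb sum kept a log2 fold change below 0 in all of them, from -0.41 without KO replicate 1 to -0.26 without KO replicate 3, with adjusted p of at least 0.416. The Mitf sum (-0.30 to -0.13) and the Rraga sum (-0.28 to -0.10) were also below 0 in each. The signs of the Tfe3, Flcn, Fnip1, Fnip2, Rragc, Rragd and Prkaa1 sums changed in at least 1 alternative.

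**Figure D5:**
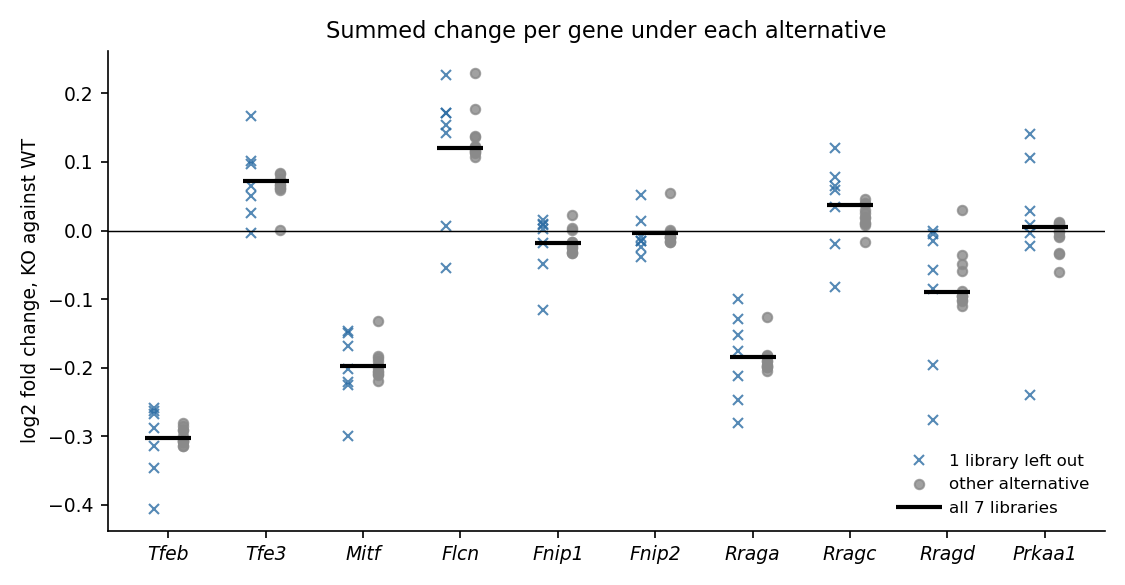
Log2 fold change of each gene sum (KO against WT, vertical axis) with all 7 libraries (black bars), with 1 library left out (crosses) and under the other alternatives (grey circles). The Tfeb, Mitf and Rraga values stay below 0, with Tfeb between -0.41 and -0.26, while those of the other 7 genes reach both signs.

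Over the 7 libraries the gene sums most like that of Tfeb were those of Pde4dip (Pearson r = 0.98), Plekha2 (0.97) and Iws1 (0.96), out of 6657 genes with a mean count of at least 100. An r over 0.9 was found for 29 genes, and with 7 libraries that share depth and scaling this is a description. Mitf had an r of 0.67 with Tfeb, Fnip1 0.42, Rraga 0.34, Fnip2 0.09 and Rragc -0.33. The remaining members had lower counts and were not compared.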

How the data were processed

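The authors deposited 1 table of counts per peak, whole numbers that were not normalized, for 7 libraries over 50213 peaks. Per the submitters' processing notes, the build was mm10, reads were handled with BWA 0.7.16, Trimmomatic 0.36, SAMtools 1.9 and Picard 2.9.4, and MACS2 2.1.1 and bedtools 2.25.0 were also used. Settings, the merging of peaks and any shift of reads for the transposase are not given in these sources. Such a shift moves peak edges by a few bases. Even numbers made up 78.0% to 86.3% of the counts of a library, so most fragments may be counted by both mates. Whether starts count from 0 or 1 is not stated, and positions are printed as deposited.

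Peaks were assigned with a RefSeq gene table of GRCm38.p6: 32474 touched a protein-coding gene, 14995 lay within 100 kb of the nearest one and 2744 were unassigned. A peak touching several genes counted for each. Tests used edgeR 4.0.16 (robust quasi-likelihood fit, TMM, filterByExpr with minimum count 10 and total 15) in R 4.3.3 on all 7 libraries, genotype only, Benjamini-Hochberg at 0.05 over 38041 peaks or 13271 gene sums. Intervals are the log2 fold change ± SE times the t quantile. DESeq2 1.42.0 and limma 3.58.1 (voom) were alternatives. CPM use the total in all peaks and TMM factors. The procedure was tested on simulated counts for KO against WT, with 9 false calls among 107 over 35794 peaks and 7 among 161 over 13119 gene sums.

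Same-numbered WT and KO libraries did not deviate together (correlation -0.027 to 0.011), so numbers were not treated as pairs. All peaks of the 10 genes are accounted for. Each gene's sum, its most abundant peak and its peak with the smallest p are given by library. Of each other pathway list the peak with the smallest p is named, with values by library for Rheb, Prkag2 and Uvrag. The members and lists were chosen with earlier results of these data known. Python 3.11.15, pandas 2.3.3, NumPy 2.4.6, SciPy 1.17.1 and matplotlib 3.10.9 were used. A marker list for 1 other cell type is not reported here.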

Additional observations from a re-analysis of the deposited data

Results flagged for a closer look

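Of 41 sets of 4 WT values examined (31 peaks and 10 gene sums), 3 held a library far from the others, each time WT replicate 1, and chance gives about 1 in 20. At the Mitf start-site peak WT replicate 1 had 69.9 CPM, against 49.7 to 52.5 in the other WT libraries. In the Fnip1 sum it had 60.5 CPM, against 78.9 to 80.6. In the Rragd sum it had 15.5 CPM, against 26.6 to 28.9. Without this library the log2 fold change was -0.0021 at the Mitf peak, -0.12 in the Fnip1 sum and -0.28 in the Rragd sum, none of them called.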

How the results depend on the processing

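No peak and no gene sum of the 10 genes was called in any alternative (0 in each). Over all peaks 33 were called, against 55 with DESeq2, 53 with limma-voom, 60 where the mean count was 20 or more, 79 with counts halved and 15 to 43 with 1 library left out (17 without WT replicate 1, 15 without KO replicate 1, 16 without KO replicate 3). Over all gene sums 49 were called, against 18 with DESeq2, 78 with counts halved, 32 with peaks within 10 kb and 8 to 65 with 1 library left out (24 without WT replicate 1, 26 without WT replicate 3 or 4, 13 without KO replicate 1, 8 without KO replicate 3). Called peaks split into 18 higher and 15 lower, but 16 and 23 with total counts as the scaling and 12 and 24 with loess offsets. Gene sums split into 14 and 35, but 7 and 11 with DESeq2. Replicate numbers did not pair the libraries (correlations of -0.013, -0.027 and 0.011), and a replicate block gave 13 peaks and 23 gene sums. With that block the sign changed in the sums of Fnip1 (0.023), Fnip2 (0.055), Rragc (-0.016), Rragd (0.03) and Prkaa1 (-0.034), and at the start-site peaks of Fnip2 (0.033), Rragc (-0.001) and Prkaa1 (-0.025), the distal Rragc peak (-0.135) and the Rragd peak near the start (0.023). Of 551 log2 fold changes recomputed for 35 peaks and sums, 488 kept their sign and call, 63 changed sign and 0 became called. All that changed sign had an interval around 0 and the cause was not tested. For the Fnip1 sum the values were 0.0036 (limma-voom) and 0.0014 (WT replicates 2 and 3 summed), and for the Fnip2 sum 0.0006 (limma-voom). For the Prkaa1 sum they were -0.0078 (total counts), -0.061 (limma-voom), -0.0019 (mean count of at least 20), -0.034 (counts halved), -0.009 (touching peaks) and -0.001 (within 10 kb), and for its peak -0.0072 (total counts), -0.0304 (loess), -0.053 (limma-voom), -0.013 (mean count of at least 20) and -0.039 (counts halved). The Fnip1 start-site peak had -0.018 (loess) and -0.0002 (mean count of at least 20), that of Rragc -0.028 (loess) and -0.011 (counts halved), and the Rragd peak near the start 0.097 (limma-voom) and 0.015 (WT replicates 2 and 3 summed). With 1 library left out the sums ran from -0.0043 to 0.168 at Tfe3, -0.055 to 0.227 at Flcn, -0.115 to 0.015 at Fnip1, -0.039 to 0.052 at Fnip2, -0.083 to 0.121 at Rragc and -0.24 to 0.141 at Prkaa1. The peaks ran from -0.88 to 0.148 at Tfeb from 47768707, -0.336 to 0.0091 at Mitf from 97806773, -0.0023 to 0.285 from 98015593, -0.111 to 0.287 from 98113660, -0.461 to 0.03 at Flcn from 59810160, -0.107 to 0.099 at Fnip1 from 54437741, -0.282 to 0.527 from 54502893, -0.071 to 0.027 at Fnip2 from 79567494, -0.059 to 0.111 at Rragc from 123917130, -0.217 to 0.611 from 123952150, -0.29 to 0.248 at Rragd from 32983209 and -0.222 to 0.153 at Prkaa1 from 5143283. Some kept their sign whichever library was left out. Of these, the Rragd sum ran from -0.28 (without WT replicate 1) to -0.0005 (without KO replicate 2). The Tfe3 peak ran from 0.0015 to 0.169, the Rraga peak from -0.27 to -0.087 and Flcn from 59809590 from 0.063 to 0.385. Fnip1 from 54464705 ran from 0.022 to 0.282 and Tfeb from 47793451 from -0.43 to -0.15. Counts per peak were low, so intervals were wide away from start sites.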
